A study of Mus musculus with 9 samples.

Results

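The 40 genes described here are a named set from the erythroid programme: genes of red cell regulation, haem synthesis, the red cell membrane and its skeleton, carbonic anhydrases and globins. They were taken by gene symbol from count tables that list 55291 genes, and the rule uses no measured value. The set falls into 8 regulators (the erythropoietin receptor among them), 13 genes of haem synthesis and transport, 12 membrane genes, 2 carbonic anhydrases and 5 globin genes. A row was found for 39 of them, and Ahsp was not analysed here. RNA sequencing had been done on mouse acute myeloid leukaemia (AML) cells, which per the labels all carried the Trp53(R172H/Δ) genotype, a missense allele of the p53 gene over a deleted one. The cells came from lungs of recipient mice of wild-type genotype (3 libraries), from the bone marrow of such mice (3 libraries) and from in vitro culture (3 libraries). No library used here was labelled as p53-intact cells or as normal blood cells. The way leukaemia cells were separated from host cells is not given in the sources used here. The labels do not say whether libraries of a group came from separate mice or separate cultures, so p-values measure only the spread between these libraries.

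Red cell formation runs from progenitors that depend on the erythropoietin receptor, through a stage in which GATA1 and KLF1 switch on a shared set of genes, to cells filled with haemoglobin. Haem is built in steps that start in the mitochondrion with aminolevulinate synthase, pass through the cytosol, and end in the mitochondrion with the insertion of iron by ferrochelatase. The red cell membrane is held by a spectrin mesh that ankyrin and protein 4.2 tie to the anion exchanger band 3, and that protein 4.1 ties to glycophorin C. Globin and band 3 transcripts accumulate late in normal maturation, whereas KLF1 and the erythropoietin receptor are present earlier.

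Libraries held 27485111 to 38761363 counted reads, and levels are given as CPM (reads of a gene scaled to a common library size) on library sizes scaled by TMM. Transcripts of the erythroid regulators Klf1 and Gata1 were abundant in all 9 libraries, while several myeloid markers were near 0 in culture. Cebpa had 0 reads there, Mpo had 0.0742, 0 and 0 CPM, Csf3r 0, 0 and 0.0355 CPM and Lyz2 0.111, 0.369 and 0.462 CPM, against 1129.9, 1158 and 1214 CPM for Kit, a receptor of blood progenitors. Not all of the 11 myeloid and progenitor markers examined were near 0 in culture. Per kilobase of the longest coding transcript, Csf2rb had 4.39 CPM in culture, 2.81 in lung and 0.754 in bone marrow (means of 3 libraries). Spi1 had 1.93, 6.82 and 5.18 in the same order. The label AML is that of the samples and was kept, with no other cell type name given. Transcripts that mark other cell types were counted in tissue and in culture libraries. Whether they came from host cells or from the leukaemia cells was not tested. The summed level of 10 neutrophil markers, led by Ngp and S100a8, was 11.6 to 85.2 CPM in lung, 331 to 2069 CPM in bone marrow and 1.31 to 2.49 CPM in culture, with bone marrow replicate 3 the highest. The summed level of 6 lung epithelium markers, led by Sftpc and Scgb1a1, was 14.7 to 82.6 CPM in lung, 0.572 to 0.684 CPM in bone marrow and 0.556 to 1.02 CPM in culture. Of 8 endothelium markers tested, 7 were higher in lung than in bone marrow. Several of them, Cldn5, Tie1, Tek and Cdh5 among them, passed the low-count filter only through lung, so this count is not read as a result. The summed level of the endothelium markers was 126 to 150.2 CPM in lung, 117 to 141 CPM in bone marrow and 111 to 114 CPM in culture, most of it Egfl7. Tie1 and Emcn were at 0 in culture. The macrophage sum was 142 to 202 CPM in lung, 239 to 267 CPM in bone marrow and 223 to 246 CPM in culture, most of it Slc40a1, while C1qa, C1qc, Cd5l and Timd4 were at 0 in culture. The B cell sum was 1.79 to 4.48 CPM in lung, 1.16 to 11.4 CPM in bone marrow and 0.431 to 0.594 CPM in culture, the mast cell and basophil sum, led by Cpa3 and Ms4a2, was 68.7 to 128 CPM, 37.4 to 45.2 CPM and 25.9 to 29.9 CPM in the same order, and the megakaryocyte sum, led by Itga2b and Gp5, was 31.7 to 47.5 CPM, 29.5 to 44.8 CPM and 30.9 to 38.8 CPM. The parts that such cells have in the results below were not tested.

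Of the 39 genes with a row, 37 had enough reads to be tested. Icam4, a blood group adhesion molecule, had 0 reads in all 9 libraries, and every base of its exons lies under an annotated gene on the opposite strand, Gm47079. Trim58, an E3 ubiquitin ligase of late erythroid cells, had 13 reads in the lung libraries together, 13 in bone marrow and 1 in culture, and stayed below the filter. Differences were tested for every gene with edgeR's quasi-likelihood test on all 9 libraries, and a gene was called when its p, adjusted by the Benjamini-Hochberg method over 15066 genes, was under 0.05.

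The members moved in both directions in each comparison. In bone marrow against culture, 11 of the 37 members were higher and 11 were lower, with 30.7% and 29.8% of all tested genes called in those directions. In lung against culture, 11 members were higher and 12 were lower, beside 27.9% and 27% of all genes. In lung against bone marrow, 3 members were higher and 7 were lower, beside 14.2% and 11.1% of all genes. In either direction, 25.3% of all genes were called in lung against bone marrow, 60.5% in bone marrow against culture and 54.9% in lung against culture. The shares of all genes given here also stand beside the counts of each smaller list below. The member shares against culture, 29.7% to 32.4%, lay near those of all genes. In lung against bone marrow they were 8.11% higher and 18.9% lower, shares that rest on 3 and 7 genes. The median log2 change of the tested members was -0.05 for lung against bone marrow, -0.03 for bone marrow against culture and -0.04 for lung against culture, beside -0.01, 0.05 and 0.02 over all tested genes. Leaving out single libraries moved the 7 lower calls in lung against bone marrow to 3 without lung replicate 1, to 2 without lung replicate 2 and to 4 with bone marrow replicate 2 left out. The 3 higher calls became 5 with lung replicate 1 left out and 6 with bone marrow replicate 2 left out. Lung and bone marrow libraries that bear the same number deviated together over all genes. With that number as a block, in a fit of lung and bone marrow alone, 8 members were higher and 8 lower in lung, and the genes whose call changed are given below with their blocked values.

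**Figure D1:**
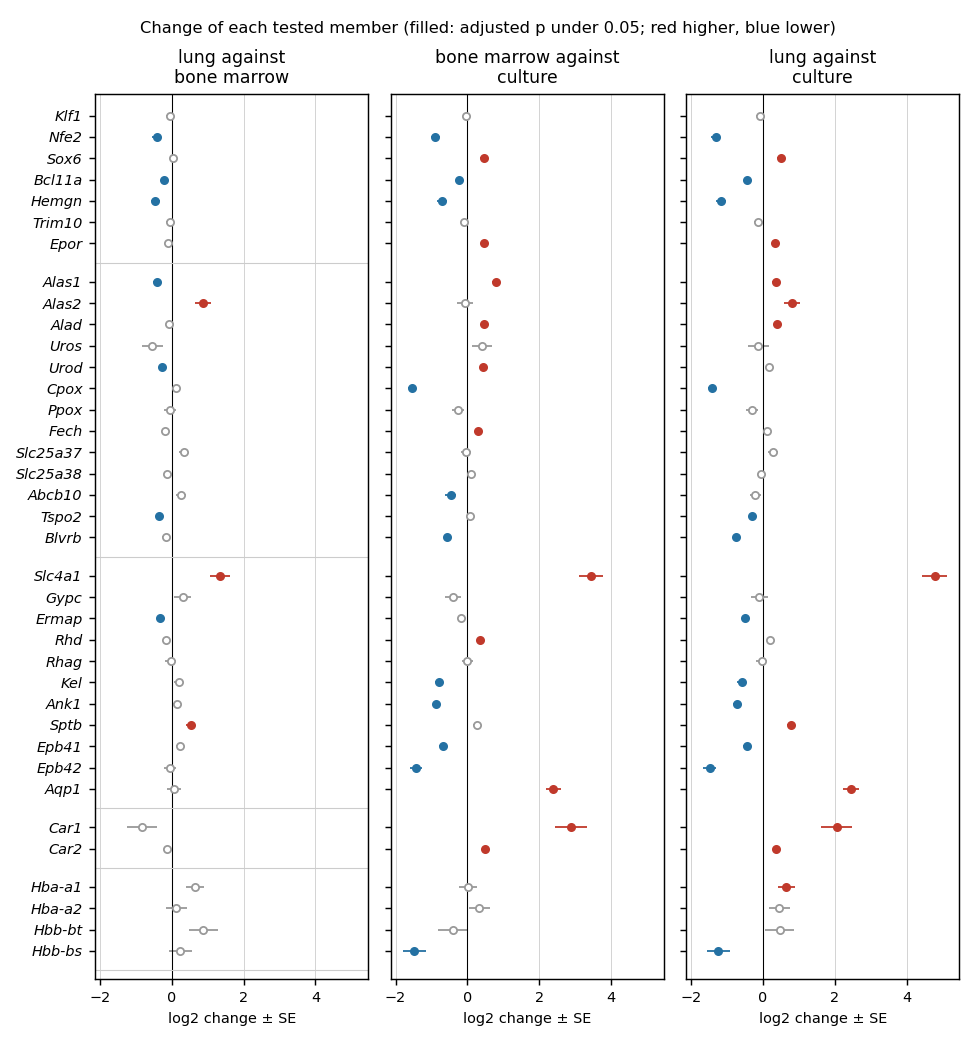
Log2 change of each tested member in the 3 comparisons, with points for the edgeR estimate, bars for its standard error and filled points for genes called at an adjusted p under 0.05 (red higher, blue lower). Changes between tissue and culture run from -1.55 for Cpox in bone marrow to 4.78 for Slc4a1 in lung, and changes between lung and bone marrow from -0.83 for Car1 to 1.34 for Slc4a1.

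Both tissue groups were set against the same culture libraries, so their changes are given side by side. Against culture, 8 members were called higher in lung and in bone marrow: Sox6, Epor, Alas1, Alad, Slc4a1, Aqp1, Car1 and Car2. A further 10 were called lower in both: Nfe2, Bcl11a, Hemgn, Cpox, Blvrb, Kel, Ank1, Epb41, Epb42 and Hbb-bs. Across all 3 comparisons, 27 members were called at least once. The matching shares over all tested genes are not given here for these counts. Against culture, 60.5% of all tested genes were called in bone marrow and 54.9% in lung. The counts are therefore not read as a trait of the set. The 10 tested members never called were Klf1, Trim10, Uros, Ppox, Slc25a37, Slc25a38, Gypc, Rhag, Hba-a2 and Hbb-bt.

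**Figure D2:**
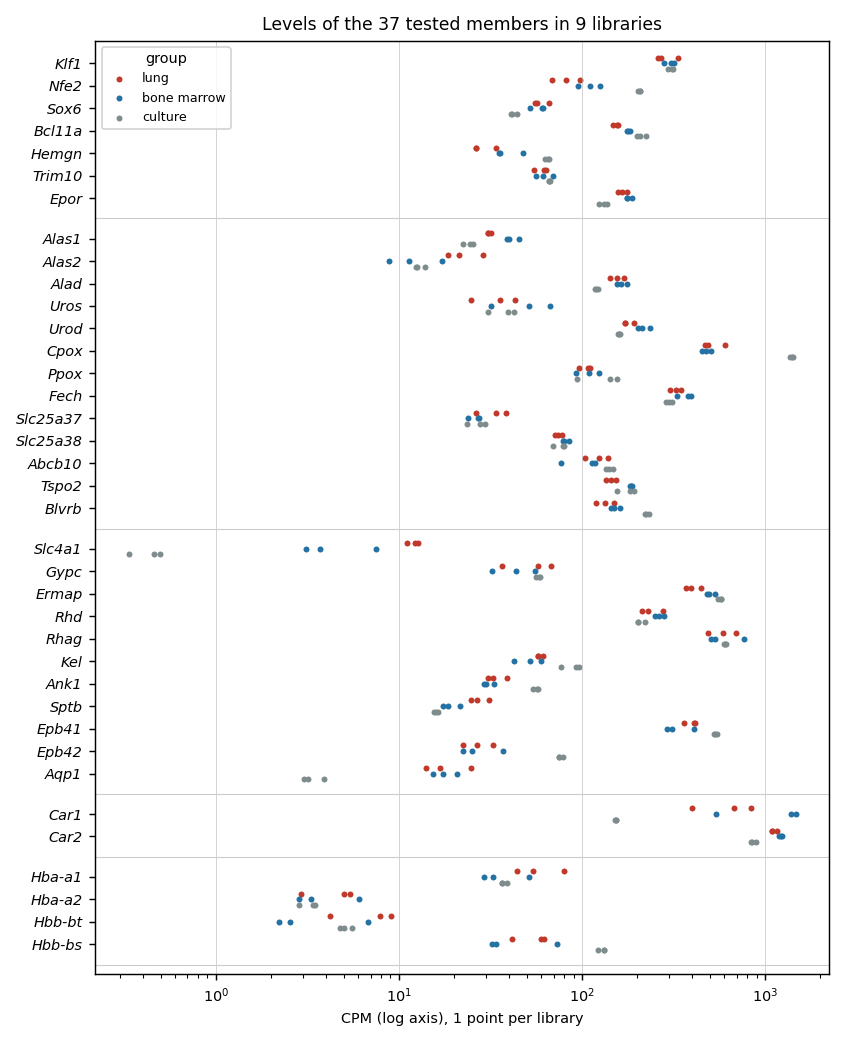
Level of each member in the 9 libraries, in CPM on a log axis, with points coloured by group and genes ordered by role. Culture libraries lie close together for most genes, and lung and bone marrow libraries spread more, among them those of Slc4a1, Car1 and the globins in bone marrow.

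Of the 7 regulators tested, 2 were higher and 3 lower in bone marrow than in culture, 2 higher and 3 lower in lung than in culture, and 3 lower in lung than in bone marrow. Klf1, a zinc finger activator of the adult beta globin gene and of many other erythroid genes, had 261, 271 and 334 CPM in lung, 305, 280.3 and 317 CPM in bone marrow and 295, 314 and 309 CPM in culture. Its groups overlapped, and the changes were -0.06 ± 0.09 (log2, ± SE) for lung against bone marrow, -0.03 ± 0.09 for bone marrow against culture and -0.09 ± 0.09 for lung against culture (adjusted p = 0.68, 0.82 and 0.46). Without lung replicate 3 the last of these was -0.22 (adjusted p = 0.0495).

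Nfe2 encodes the p45 subunit of a factor that binds the globin locus control region. It had 68.4, 82.0 and 97.6 CPM in lung, 94.6, 111 and 126 CPM in bone marrow and 201, 206 and 208 CPM in culture. In bulk RNA of this kind, fewer cells of a type and less RNA per cell cannot be told apart. Every culture library lay above every tissue library, and the lowest bone marrow library lay just under the highest lung library. The log2 change was -0.89 ± 0.13 (adjusted p = 4.6e-05) for bone marrow against culture, -1.31 ± 0.13 (adjusted p = 2.5e-06) for lung against culture and -0.42 ± 0.13 (adjusted p = 0.028) for lung against bone marrow. Hemgn, a nuclear protein of blood cells and a known GATA1 target, had the same order of groups, at 26.5, 26.3 and 33.8 CPM in lung, 35.4, 35.8 and 47.6 CPM in bone marrow and 66.2, 62.9 and 65.1 CPM in culture. Its 3 groups did not overlap, with changes of -0.71 ± 0.13, -1.17 ± 0.13 and -0.46 ± 0.13 in those comparisons (adjusted p = 3.3e-04, 6.3e-06 and 0.021). Gata1, the master regulator of the lineage and not itself in the set, had 286, 313 and 356 CPM in lung, 371, 337 and 323 CPM in bone marrow and 379.6, 389 and 378 CPM in culture. Gata1 was lower in lung than in culture (-0.26 ± 0.09, adjusted p = 0.021) and was not called in bone marrow against culture (-0.15 ± 0.09, adjusted p = 0.15).

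The lung against bone marrow calls of Nfe2 and Hemgn depended on single libraries. Without lung replicate 1 the change of Nfe2 was -0.30 (adjusted p = 0.0986), and without lung replicate 2, bone marrow replicate 2 or bone marrow replicate 3 its adjusted p was 0.0678, 0.0781 and 0.0665. For Hemgn it was -0.40 (adjusted p = 0.0744) without lung replicate 1, -0.41 (adjusted p = 0.0737) without lung replicate 2 and -0.32 (adjusted p = 0.0574) with bone marrow replicate 3 left out.

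Bcl11a and Sox6 encode repressors of the embryonic and fetal-type globin genes, and they moved in opposite directions. Bcl11a had 148, 156 and 157 CPM in lung, 178, 182 and 176 CPM in bone marrow and 200.4, 208 and 223 CPM in culture. The groups did not overlap, and Bcl11a was lower in bone marrow than in culture (-0.24 ± 0.07, adjusted p = 0.012), lower in lung than in culture (-0.45 ± 0.07, adjusted p = 1.4e-04) and lower in lung than in bone marrow (-0.22 ± 0.07, adjusted p = 0.041). The last call was lost without any 1 of 7 libraries (adjusted p = 0.0533 to 0.139, the highest without lung replicate 1) and with the replicate number as a block (-0.22, adjusted p = 0.0504, on all 9 libraries and -0.22, adjusted p = 0.0597, on lung and bone marrow alone). It was also lost with RLE scaling, limma-voom, only the 6 libraries compared and no low-count filter (adjusted p = 0.0547, 0.0666, 0.0979 and 0.131). The call against culture in bone marrow was lost without culture replicate 3, at -0.20 (adjusted p = 0.058), with no low-count filter, at -0.22 (adjusted p = 0.0574), and with upper-quartile scaling, at -0.16 (adjusted p = 0.0618). Sox6 had 66.1, 57.1 and 55.6 CPM in lung, 60.6, 52.3 and 61.2 CPM in bone marrow and 41.1, 44.2 and 41.3 CPM in culture, with every tissue library above every culture library. Its changes were 0.46 ± 0.10 (adjusted p = 0.0011) for bone marrow against culture, 0.50 ± 0.10 (adjusted p = 7.5e-04) for lung against culture and 0.04 ± 0.10 (adjusted p = 0.81) for lung against bone marrow.

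Of 6 embryonic and minor globin genes, 1 had enough reads to be tested. Hba-x and Hbb-y stayed at or below 0.131 CPM in all 9 libraries. Hbb-bh1, an embryonic beta-like gene, had 0.471, 0.326 and 1.55 CPM in lung, 0.0297, 0.248 and 0.249 CPM in bone marrow and 0.185, 0.0923 and 0.0355 CPM in culture. It was called higher in lung than in bone marrow (2.11 ± 0.71, adjusted p = 0.045) and than in culture (2.87 ± 0.79, adjusted p = 0.008). Lung replicate 3 holds the most of its reads. The gene passed the low-count filter through its lung libraries alone, so its higher level there decided that it was tested. These calls are therefore not read as a result.

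Epor, the receptor through which erythropoietin keeps erythroid progenitors alive, had 156, 164 and 176 CPM in lung, 175, 187 and 176 CPM in bone marrow and 131, 136 and 124 CPM in culture. Both tissue groups lay above culture without overlap, with changes of 0.46 ± 0.08 (adjusted p = 1.5e-04) for bone marrow and 0.34 ± 0.08 (adjusted p = 0.0018) for lung, and lung against bone marrow was not called (-0.12 ± 0.08, adjusted p = 0.28). Trim10, a RING finger protein linked to terminal red cell maturation, had 55.0, 63.6 and 62.2 CPM in lung, 56.1, 69.9 and 61.6 CPM in bone marrow and 67.0, 65.8 and 66.0 CPM in culture and was called in no comparison (log2 changes of -0.05 for lung against bone marrow, -0.08 for bone marrow against culture and -0.14 for lung against culture).

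Along the haem pathway the enzymes did not move together. Of the 13 haem genes, 4 were higher and 3 lower in bone marrow than in culture, 3 higher and 3 lower in lung than in culture, and 1 higher and 3 lower in lung than in bone marrow. The first enzyme has a housekeeping form, Alas1, and an erythroid form, Alas2. Alas1 had 31.7, 30.8 and 30.6 CPM in lung, 39.0, 40.2 and 45.5 CPM in bone marrow and 22.4, 24.4 and 25.5 CPM in culture. Bone marrow lay highest, lung next and culture lowest, with no overlap between any groups. The changes were -0.42 ± 0.10 (adjusted p = 0.0073) for lung against bone marrow, 0.79 ± 0.10 (adjusted p = 1.3e-05) for bone marrow against culture and 0.36 ± 0.10 (adjusted p = 0.0066) for lung against culture. Without culture replicate 1 the last was 0.28 (adjusted p = 0.0622).

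Alas2 had 18.5, 28.7 and 21.4 CPM in lung, 8.81, 17.2 and 11.3 CPM in bone marrow and 12.5, 12.5 and 14.0 CPM in culture. All lung libraries lay above all libraries of the other groups, and bone marrow overlapped culture. The gene was higher in lung than in bone marrow (0.88 ± 0.22, adjusted p = 0.015) and than in culture (0.82 ± 0.22, adjusted p = 0.0089), while bone marrow against culture gave -0.06 ± 0.23 (adjusted p = 0.83). Without lung replicate 2, its highest library, lung against bone marrow was 0.67 (adjusted p = 0.0637). Of its exon bases, 15.5% lie under genes on the opposite strand, mainly Apex2, and the names of the deposited files mark the counts as unstranded. Per kilobase of the longest coding transcript, Alas2 stood at 11.2 ± 2.58 in lung, 6.11 ± 2.13 in bone marrow and 6.37 ± 0.419 in culture, and Alas1 at 9.12 ± 0.178 in lung, 12.2 ± 1.02 in bone marrow and 7.09 ± 0.471 in culture (CPM per kb, mean ± SD, n = 3). The erythroid form therefore exceeded the housekeeping form on average in lung, where the means differed by less than the SD of Alas2. It stood below the housekeeping form in bone marrow and in culture. These rankings rest on the length of 1 transcript per gene.

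The second enzyme, aminolevulinate dehydratase (Alad), had 143, 156 and 169 CPM in lung, 164, 177 and 155 CPM in bone marrow and 119.6, 118 and 122 CPM in culture. It was higher in both tissues than in culture, with changes of 0.47 ± 0.08 (adjusted p = 2.9e-04) in bone marrow and 0.38 ± 0.08 (adjusted p = 0.0016) in lung. Uros, uroporphyrinogen III synthase, had 24.9, 35.8 and 43.0 CPM in lung, 31.8, 51.6 and 66.8 CPM in bone marrow and 42.7, 39.3 and 30.8 CPM in culture, with bone marrow replicate 1 apart from the other bone marrow libraries. No comparison called Uros (-0.54 ± 0.28, adjusted p = 0.2, for lung against bone marrow), but without bone marrow replicate 1 it was -0.78 (adjusted p = 0.0226) there and 0.66 (adjusted p = 0.0248) in bone marrow against culture. With the replicate number as a block in lung and bone marrow alone, Uros was -0.51 (adjusted p = 3.2e-04).

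Urod, uroporphyrinogen decarboxylase, had 172, 172 and 193 CPM in lung, 202, 235 and 212 CPM in bone marrow and 156, 161 and 159 CPM in culture. It was higher in bone marrow than in culture (0.45 ± 0.08, adjusted p = 3.1e-04) and lower in lung than in bone marrow (-0.28 ± 0.08, adjusted p = 0.024), with lung between the other groups. That second call was lost without lung replicate 1, lung replicate 2 or bone marrow replicate 2, at -0.24 (adjusted p = 0.0858), -0.26 (adjusted p = 0.0834) and -0.21 (adjusted p = 0.0929).

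Cpox, coproporphyrinogen oxidase, was the haem enzyme that differed most between tissue and culture. It had 469, 488 and 606 CPM in lung, 473, 455 and 506 CPM in bone marrow and 1367, 1404 and 1426 CPM in culture. Each culture library held more than 2 times the level of any tissue library. Cpox was 2.92-fold lower in bone marrow than in culture (log2 change -1.55 ± 0.10, adjusted p = 2.4e-08) and 2.68-fold lower in lung than in culture (-1.42 ± 0.10, adjusted p = 7.5e-08), and lung against bone marrow was not called (0.12 ± 0.10, adjusted p = 0.36). Per kilobase it stood at 168 ± 24.0 in lung, 154 ± 8.34 in bone marrow and 452 ± 9.72 in culture, the highest of the haem enzymes in culture. The gene lies at chr16:58670292-58717636, plus strand (GRCm38). Its promoter is shown because the change is among the largest of the set. The 250 bases before its RefSeq start (chr16:58669958-58670207, plus strand, GRCm38.p6) hold 2 overlapping GATA motifs, in capitals, and no KLF motif.
Cpox: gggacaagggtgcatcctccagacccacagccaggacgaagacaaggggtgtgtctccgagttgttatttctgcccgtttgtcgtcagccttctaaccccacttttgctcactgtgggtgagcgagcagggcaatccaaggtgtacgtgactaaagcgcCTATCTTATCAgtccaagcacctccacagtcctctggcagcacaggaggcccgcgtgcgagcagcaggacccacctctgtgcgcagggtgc

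Ppox, the next enzyme, had 96.3, 108 and 110.2 CPM in lung, 93.1, 109 and 123 CPM in bone marrow and 156, 142 and 93.6 CPM in culture, and its changes were -0.05 ± 0.17 for lung against bone marrow, -0.26 ± 0.17 for bone marrow against culture and -0.31 ± 0.17 for lung against culture, none of them called. Without culture replicate 3 it was -0.46 (adjusted p = 0.0067) for bone marrow against culture and -0.51 (adjusted p = 0.00438) for lung against culture. Of its exon bases 17.5% are shared with B4galt3 on the opposite strand. Fech, ferrochelatase, had 325, 347 and 303 CPM in lung, 393, 379 and 333 CPM in bone marrow and 288, 298 and 309.5 CPM in culture. It was higher in bone marrow than in culture (0.30 ± 0.08, adjusted p = 0.0064), a call lost without culture replicate 1 (0.26, adjusted p = 0.0552). Lung against culture gave 0.12 ± 0.08 (adjusted p = 0.22), and lung against bone marrow gave -0.18 ± 0.08 (adjusted p = 0.13), which without bone marrow replicate 3 was -0.26 (adjusted p = 0.0443).

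**Figure D3:**
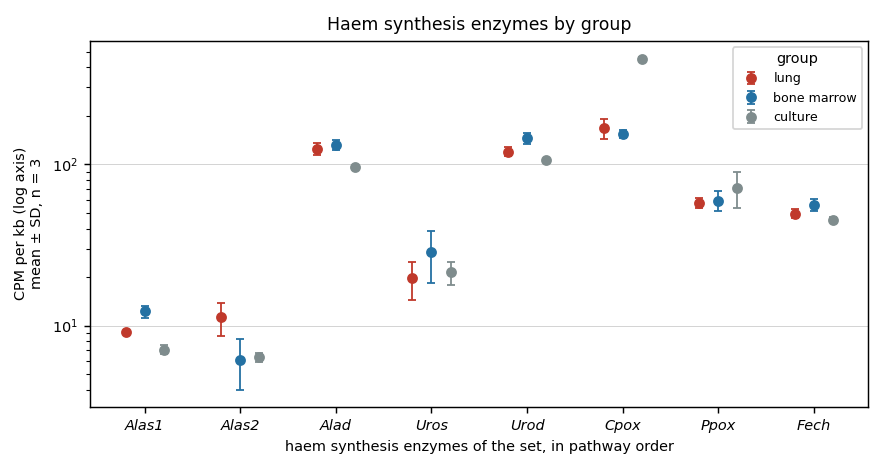
Levels of the haem synthesis enzymes of the set in pathway order, in CPM per kilobase of the longest coding transcript on a log axis, with points for group means and bars for the SD over 3 libraries. Cpox lies highest in culture, at 452 CPM per kb, while Alad and Urod lie lowest in culture.

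Mitochondrial carriers feed the pathway with iron and glycine. Slc25a37 (mitoferrin 1, the iron importer of erythroid mitochondria) had 26.5, 33.8 and 38.5 CPM in lung, 27.1, 24.0 and 27.6 CPM in bone marrow and 27.8, 29.7 and 23.6 CPM in culture, and Slc25a38 (a glycine carrier) had 73.7, 71.3 and 77.4 CPM in lung, 79.1, 85.0 and 79.8 CPM in bone marrow and 79.2, 80.1 and 69.3 CPM in culture. Neither was called in any comparison. Without lung replicate 1, Slc25a37 was 0.47 (adjusted p = 0.0228) for lung against bone marrow and 0.42 (adjusted p = 0.0139) for lung against culture, and the block in lung and bone marrow alone gave 0.31 (adjusted p = 0.0348) for lung against bone marrow.

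Abcb10, an inner membrane transporter required for haem synthesis in mouse erythroid cells, had 104, 138 and 125 CPM in lung, 76.8, 118 and 113 CPM in bone marrow and 135, 141 and 147 CPM in culture. It was lower in bone marrow than in culture (-0.46 ± 0.15, adjusted p = 0.019), a call lost without culture replicate 3 (-0.44, adjusted p = 0.0577), and the block in lung and bone marrow alone gave 0.27 (adjusted p = 0.0317) for lung against bone marrow. Tspo2, an erythroid relative of the mitochondrial translocator protein, had 143, 135 and 154 CPM in lung, 186, 183 and 188 CPM in bone marrow and 193, 182 and 156 CPM in culture. Lung lay below both other groups without overlap, at -0.36 ± 0.09 (adjusted p = 0.0094) against bone marrow and -0.29 ± 0.09 (adjusted p = 0.012) against culture. Blvrb, which reduces biliverdin and flavins, had 119.9, 133 and 149.9 CPM in lung, 144, 161 and 150.0 CPM in bone marrow and 233, 220.2 and 224 CPM in culture. Tissue lay below culture without overlap, with changes of -0.57 ± 0.09 (adjusted p = 7.9e-05) in bone marrow and -0.75 ± 0.09 (adjusted p = 9.9e-06) in lung. Lung against bone marrow gave -0.18 ± 0.09 (adjusted p = 0.16), and -0.27 (adjusted p = 0.0444) without lung replicate 3.

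Outside the set, 17 further genes of haem and mitochondrial iron were tested. Against culture, 7 were higher and 4 lower in bone marrow, and 8 were higher and 3 lower in lung. Glrx5, which assembles iron-sulphur clusters, was higher in both (0.83 in bone marrow, 0.63 in lung), as was Tmem14c, a mitochondrial protein of haem synthesis (0.82 in bone marrow, 0.44 in lung). The haem carrier Slc48a1 and the mitochondrial carrier Slc25a39 were lower in both (-0.56 and -0.48 in bone marrow, -0.48 and -0.43 in lung). In lung against bone marrow, Tmem14c and Blvra were lower and no gene of the list was higher at the adjusted threshold.

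The largest change of the set was that of a membrane gene. Of the 11 membrane genes tested, 3 were higher and 4 lower in bone marrow than in culture, 3 higher and 5 lower in lung than in culture, and 2 higher and 1 lower in lung than in bone marrow. Slc4a1, the band 3 anion exchanger of mature red cells, had 11.1, 12.2 and 12.7 CPM in lung, 3.72, 7.46 and 3.11 CPM in bone marrow and 0.334, 0.462 and 0.497 CPM in culture. The 3 groups did not overlap, with culture under 1 CPM and lung above every bone marrow library. The log2 change was 3.44 ± 0.35 (adjusted p = 2.8e-06) for bone marrow against culture, 4.78 ± 0.35 (adjusted p = 2.3e-07) for lung against culture and 1.34 ± 0.27 (adjusted p = 0.004) for lung against bone marrow, so that the level in lung was 27.5-fold that in culture. The summed lung epithelium markers were also highest in lung, as was Cldn5 of endothelium. Cldn5 had 5.53, 1.99 and 2.44 CPM there, against 0.0297, 0 and 0.0249 CPM in bone marrow and 0.0742, 0.0308 and 0 CPM in culture. The part of such cells, or of host red cells and their precursors, in the level of Slc4a1 was not tested.

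Aqp1, a water channel of the red cell and also of endothelium, had 24.7, 14.0 and 16.8 CPM in lung, 17.5, 20.7 and 15.3 CPM in bone marrow and 3.04, 3.88 and 3.20 CPM in culture. Every tissue library lay above every culture library, at 5.27-fold in bone marrow (2.40 ± 0.21, adjusted p = 7.5e-07) and 5.48-fold in lung (2.45 ± 0.21, adjusted p = 9.0e-07), and lung against bone marrow was not called (0.05 ± 0.19, adjusted p = 0.86). Most of the summed endothelium level, given above, was Egfl7, at 85.7 in lung, 89.4 in bone marrow and 79.5 in culture (mean CPM per kb). Of 8 endothelium markers tested, 7 were higher in lung than in bone marrow. In bone marrow against culture, 1 was higher and 1 lower. The part of endothelium in the level of Aqp1 was not tested. Its promoter is shown because the change is among the largest of the set. The gene lies at chr6:55336432-55348555, plus strand, and the 250 bases before its RefSeq start (chr6:55336049-55336298, plus strand, GRCm38.p6) hold 3 KLF motifs, in capitals, and no GATA motif.
Aqp1: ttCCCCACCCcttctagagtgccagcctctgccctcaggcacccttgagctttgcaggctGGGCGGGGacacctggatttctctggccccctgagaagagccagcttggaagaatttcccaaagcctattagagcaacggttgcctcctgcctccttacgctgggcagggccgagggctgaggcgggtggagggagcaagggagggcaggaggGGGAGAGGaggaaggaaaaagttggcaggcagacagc

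The skeleton genes that link the spectrin mesh to the membrane were lower in tissue. Epb42, protein 4.2, had 22.4, 26.6 and 32.8 CPM in lung, 22.4, 25.2 and 36.8 CPM in bone marrow and 74.7, 75.1 and 78.7 CPM in culture, and was 2.70-fold lower in bone marrow than in culture (-1.43 ± 0.18, adjusted p = 2.8e-05) and 2.80-fold lower in lung (-1.48 ± 0.18, adjusted p = 2.8e-05). Epb41, protein 4.1, had 412, 411 and 360.2 CPM in lung, 411, 312 and 291 CPM in bone marrow and 534, 549 and 527 CPM in culture, with changes of -0.67 ± 0.11 (adjusted p = 1.9e-04) and -0.44 ± 0.11 (adjusted p = 0.0044). Ank1, ankyrin, had 32.8, 39.0 and 30.9 CPM in lung, 33.3, 30.0 and 29.3 CPM in bone marrow and 57.1, 57.5 and 54.2 CPM in culture, with changes of -0.87 ± 0.10 (adjusted p = 9.0e-06) and -0.72 ± 0.10 (adjusted p = 6.0e-05). For all 3 genes the culture libraries lay above all tissue libraries. Without bone marrow replicate 1, Epb41 was also called in lung against bone marrow, at 0.38 (adjusted p = 0.00414). The Epb42 promoter is shown as that of the membrane gene with the largest fall. The gene lies at chr2:121017891-121037072, minus strand, and the 250 bases before its RefSeq start (chr2:121036878-121037127, minus strand, GRCm38.p6), which overlap the GENCODE span of the gene, hold 1 GATA motif, in capitals, read from the opposite strand, and no KLF motif.
Epb42: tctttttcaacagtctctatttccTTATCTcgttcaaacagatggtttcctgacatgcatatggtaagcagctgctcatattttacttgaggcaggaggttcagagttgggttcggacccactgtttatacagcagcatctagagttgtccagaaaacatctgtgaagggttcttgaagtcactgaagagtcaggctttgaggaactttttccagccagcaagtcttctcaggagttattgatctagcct

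Beta spectrin was higher in lung. Sptb, which encodes it, had 26.7, 31.0 and 24.8 CPM in lung, 18.6, 21.5 and 17.5 CPM in bone marrow and 15.6, 15.9 and 16.3 CPM in culture. Lung lay above both other groups, at 0.52 ± 0.12 (adjusted p = 0.0067) against bone marrow and 0.79 ± 0.12 (adjusted p = 8.7e-05) against culture. Bone marrow against culture was 0.27 ± 0.12 (adjusted p = 0.067), and without bone marrow replicate 3 it was 0.33 (adjusted p = 0.0444). It was also called with upper-quartile scaling, 0.34 (adjusted p = 0.0257), library size scaling, 0.33 (adjusted p = 0.0322), and a stricter low-count filter, 0.29 (adjusted p = 0.0464).

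Blood group genes split as well. Kel, the Kell endopeptidase, had 57.6, 57.4 and 61.2 CPM in lung, 42.4, 51.8 and 59.9 CPM in bone marrow and 93.0, 95.8 and 77.1 CPM in culture, lower than culture in both tissues (-0.79 ± 0.12, adjusted p = 8.4e-05, in bone marrow, -0.59 ± 0.12, adjusted p = 9.6e-04, in lung). Ermap, an erythroblast membrane protein, had 449, 396 and 368 CPM in lung, 535, 481 and 497 CPM in bone marrow and 571, 574 and 554 CPM in culture. It was lower in lung than in bone marrow (-0.32 ± 0.08, adjusted p = 0.015) and than in culture (-0.49 ± 0.08, adjusted p = 2.6e-04). The first of these was lost without lung replicate 2 or lung replicate 3, at -0.32 (adjusted p = 0.0571) and -0.26 (adjusted p = 0.055). Bone marrow against culture was -0.17 ± 0.08 (adjusted p = 0.097) for Ermap, and without bone marrow replicate 1 it was -0.21 (adjusted p = 0.0448).

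Rhd, the mouse Rh blood group protein, had 229, 214 and 277 CPM in lung, 251, 265 and 282 CPM in bone marrow and 202, 203 and 221 CPM in culture. It was higher in bone marrow than in culture (0.35 ± 0.10, adjusted p = 0.0062), and without lung replicate 3 it was -0.27 (adjusted p = 0.0463) for lung against bone marrow. Rhag, its partner in the Rh complex, ranged over 489.9 to 695 CPM in lung, 509 to 770.5 CPM in bone marrow and 594 to 610.3 CPM in culture and was called nowhere. Gypc, glycophorin C, had 36.5, 57.2 and 67.9 CPM in lung, 32.1, 43.8 and 55.1 CPM in bone marrow and 58.1, 55.9 and 59.1 CPM in culture. No comparison called Gypc, although bone marrow libraries lay below culture libraries (-0.40 ± 0.23, adjusted p = 0.16). Without bone marrow replicate 3 that change was -0.60 (adjusted p = 0.0396), and the block in lung and bone marrow alone gave 0.29 (adjusted p = 0.0203) for lung against bone marrow.

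**Figure D4:**
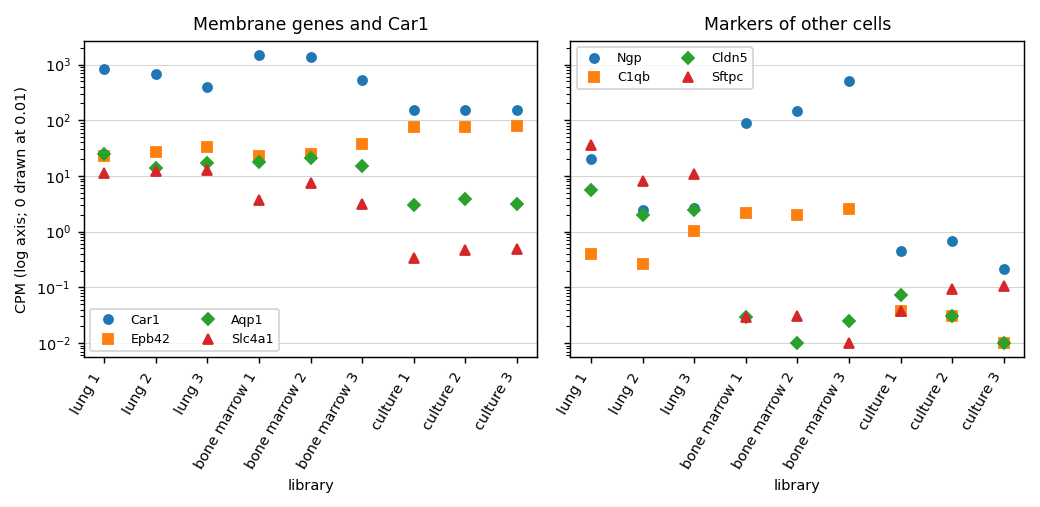
Levels per library, in CPM on a log axis with 0 drawn at 0.01, of 4 members with large changes (left) and of 1 marker each of neutrophils (Ngp), macrophages (C1qb), endothelium (Cldn5) and lung epithelium (Sftpc) (right). Slc4a1, Aqp1 and Car1 lie lowest in culture and Epb42 lies highest there, while Cldn5 and Sftpc stand out in lung and Ngp and C1qb in bone marrow.

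Among 11 membrane genes outside the set, 2 were higher and 6 lower in bone marrow than in culture, and 1 was higher and 6 lower in lung than in culture. Add3, an adducin that caps the skeleton's actin, was lower in both (-1.33 in bone marrow, -1.12 in lung). Add2, a further adducin, was also lower in both (-3.12 in bone marrow, -2.85 in lung). Piezo1, a mechanosensitive channel, was higher in both (0.24 in bone marrow, 0.49 in lung). Add1, another adducin, was higher in bone marrow than in culture (0.24 ± 0.10, adjusted p = 0.0499). Xk, a partner of Kell, was lower than culture in bone marrow (-0.99 ± 0.09, adjusted p = 1.0e-06), and Mfsd2b, a sphingosine-1-phosphate transporter, was lower in lung than in culture (-0.30 ± 0.09, adjusted p = 0.012). In lung against bone marrow, Xk and Tmod1 (tropomodulin) were higher, at 0.30 ± 0.09 (adjusted p = 0.033) and 1.03 ± 0.22 (adjusted p = 0.0047), and Mpp1 was lower, at -0.33 ± 0.11 (adjusted p = 0.042).

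Both carbonic anhydrases, which interconvert carbon dioxide and bicarbonate, were higher in tissue than in culture. Car1 had 841, 681 and 398 CPM in lung, 1477, 1389 and 539 CPM in bone marrow and 152, 154 and 153 CPM in culture. The culture libraries lay close together, all tissue libraries lay above them, and bone marrow replicate 3 lay far under the other bone marrow libraries. Car1 was 7.41-fold higher in bone marrow (2.89 ± 0.45, adjusted p = 0.0011) and 4.18-fold higher in lung (2.06 ± 0.43, adjusted p = 0.0058) than in culture. Lung against bone marrow was -0.83 ± 0.42 (adjusted p = 0.19). Without bone marrow replicate 3, which also had the highest neutrophil markers, it was -1.18 (adjusted p = 0.0131), and the block in lung and bone marrow alone gave -0.76 (adjusted p = 1.7e-05). Lung lay below bone marrow in each of the 3 same-numbered pairs. The part of neutrophil RNA in this was not tested.

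Car2, the high-activity isozyme, had 1088, 1086 and 1166 CPM in lung, 1226, 1239.9 and 1188 CPM in bone marrow and 835, 853 and 890.5 CPM in culture. It was higher than culture, with log2 changes of 0.50 ± 0.07 (adjusted p = 4.1e-05) in bone marrow and 0.37 ± 0.07 (adjusted p = 6.0e-04) in lung. Lung libraries lay below bone marrow libraries, a difference that was not called (-0.13 ± 0.07, adjusted p = 0.2). Per kilobase Car2 stood at 623 ± 25.4 in lung, 681 ± 15.1 in bone marrow and 481 ± 16.0 in culture and Car1 at 536 ± 188 in lung, 951 ± 434 in bone marrow and 128 ± 0.952 in culture (CPM per kb, mean ± SD, n = 3). Car2 exceeded Car1 in culture. The means of the pair differed by less than 1 SD of Car1 in lung, where Car2 was the higher on average, and in bone marrow, where Car1 was.

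Adult globin transcripts were present in every library, with alpha and beta genes differing in their response. Each comes as a pair of near-identical copies: Hba-a1 (chr11:32283511-32284465, plus strand) and Hba-a2 (chr11:32296489-32297298, plus strand), and Hbb-bs (chr7:103826534-103828096, minus strand) and Hbb-bt (chr7:103812524-103813996, minus strand), all in GRCm38. Within each pair the coding sequences of the GENCODE M21 annotation differ at 1 base, in 429 coding bases for alpha and 444 for beta (99.8% identity). The stretches around that base are shown, with the differing base in capitals, because they set how far reads can tell the copies apart. They are coding bases 349 to 408 of alpha and 385 to 444 of beta.
Hba-a1: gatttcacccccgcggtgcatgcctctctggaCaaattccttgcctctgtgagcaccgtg
Hba-a2: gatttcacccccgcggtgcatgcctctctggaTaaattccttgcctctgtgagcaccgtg
Hbb-bs: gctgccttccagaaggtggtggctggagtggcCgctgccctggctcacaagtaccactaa
Hbb-bt: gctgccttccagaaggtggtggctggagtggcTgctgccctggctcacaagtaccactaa
Of all 50-base windows of the transcripts, 67.5% of those in Hba-a1 and 86.9% of those in Hba-a2 also occur in the other alpha copy. For beta the shares are 65.8% in Hbb-bs and 58.3% in Hbb-bt. Counts of a single copy are therefore uncertain, and sums of each pair are given beside them. The sums would still lack any reads left uncounted because they match both copies.

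Hba-a1 had 44.0, 79.5 and 53.7 CPM in lung, 32.8, 51.3 and 29.1 CPM in bone marrow and 39.1, 36.7 and 36.4 CPM in culture, and Hba-a2 had 2.93, 5.42 and 5.03 CPM in lung, 3.33, 6.07 and 2.86 CPM in bone marrow and 3.38, 2.83 and 3.48 CPM in culture. Lung libraries of Hba-a1 lay above culture libraries, and bone marrow libraries overlapped both. The change of Hba-a1 was 0.66 ± 0.24 (adjusted p = 0.045) for lung against culture, 0.01 ± 0.25 (adjusted p = 0.98) for bone marrow against culture and 0.65 ± 0.24 (adjusted p = 0.082) for lung against bone marrow. The call against culture was lost in lung without lung replicate 2 (0.36, adjusted p = 0.163), without lung replicate 3 (0.71, adjusted p = 0.0793), without bone marrow replicate 1 or without any culture replicate (adjusted p up to 0.124). It was also lost with DESeq2 (0.66, adjusted p = 0.061). With both copies summed lung against culture was 0.64 ± 0.25 (adjusted p = 0.053). Lung lay above bone marrow for Hba-a1 in each of the 3 same-numbered pairs, and the blocked fits gave 0.65 (adjusted p = 0.0165) on all 9 libraries and 0.65 (adjusted p = 2.7e-05) on lung and bone marrow alone. Without lung replicate 1 or bone marrow replicate 2, lung against bone marrow was 0.83 (adjusted p = 0.0475) and 0.93 (adjusted p = 0.0171). Hba-a2 was called in no comparison.

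Hbb-bs had 41.6, 62.4 and 59.4 CPM in lung, 32.2, 72.6 and 33.8 CPM in bone marrow and 132, 122 and 132 CPM in culture. All culture libraries lay above all tissue libraries, and bone marrow replicate 2 was the highest tissue library. Hbb-bs was 2.78-fold lower in bone marrow (-1.48 ± 0.31, adjusted p = 0.0037) and 2.36-fold lower in lung (-1.24 ± 0.31, adjusted p = 0.0097) than in culture, and lung against bone marrow was not called (0.24 ± 0.31, adjusted p = 0.61). Without bone marrow replicate 2, lung against bone marrow was 0.72 (adjusted p = 0.00976). With both beta copies summed the changes against culture were -1.42 ± 0.33 (adjusted p = 0.0058) in bone marrow and -1.12 ± 0.32 (adjusted p = 0.019) in lung.

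Hbb-bt had 4.22, 9.07 and 7.91 CPM in lung, 2.56, 6.78 and 2.21 CPM in bone marrow and 5.53, 5.02 and 4.76 CPM in culture, and no comparison called it. Without bone marrow replicate 2 it was 1.56 (adjusted p = 0.00586) for lung against bone marrow and -1.10 (adjusted p = 0.00763) for bone marrow against culture, and the block in lung and bone marrow alone gave 0.98 (adjusted p = 0.0109). The share of beta reads assigned to Hbb-bs was 88.8 ± 1.80% in lung, 92.6 ± 1.20% in bone marrow and 96.2 ± 0.293% in culture (mean ± SD, n = 3). Lung lay lowest and culture highest with no overlap, and the part that the division of reads between the copies has in these shares was not tested.

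The alpha genes took 50.5 ± 3.84% of all adult globin reads in lung, 46.6 ± 4.52% in bone marrow and 23.3 ± 0.613% in culture. The lowest tissue library had 41.9% and the highest culture library 23.7%. How the counted reads were divided within a pair does not alter this share. Any reads left uncounted because they match both copies could alter it, and their part was not tested. Summed, the 4 genes came to 92.8 to 156 CPM in lung, 68.0 to 137 CPM in bone marrow and 167 to 179.5 CPM in culture. The Hbb-bs promoter is shown as that of the adult globin with the largest change. The 250 bases before its RefSeq start (chr7:103827929-103828178, minus strand, GRCm38.p6), which overlap the GENCODE span of the gene, hold 1 GATA motif and 1 KLF motif, in capitals.
Hbb-bs: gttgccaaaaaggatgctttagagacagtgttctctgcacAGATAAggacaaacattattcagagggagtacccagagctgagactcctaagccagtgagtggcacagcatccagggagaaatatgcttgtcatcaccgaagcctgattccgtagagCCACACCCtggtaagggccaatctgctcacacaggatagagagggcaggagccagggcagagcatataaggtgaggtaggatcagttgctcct

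**Figure D5:**
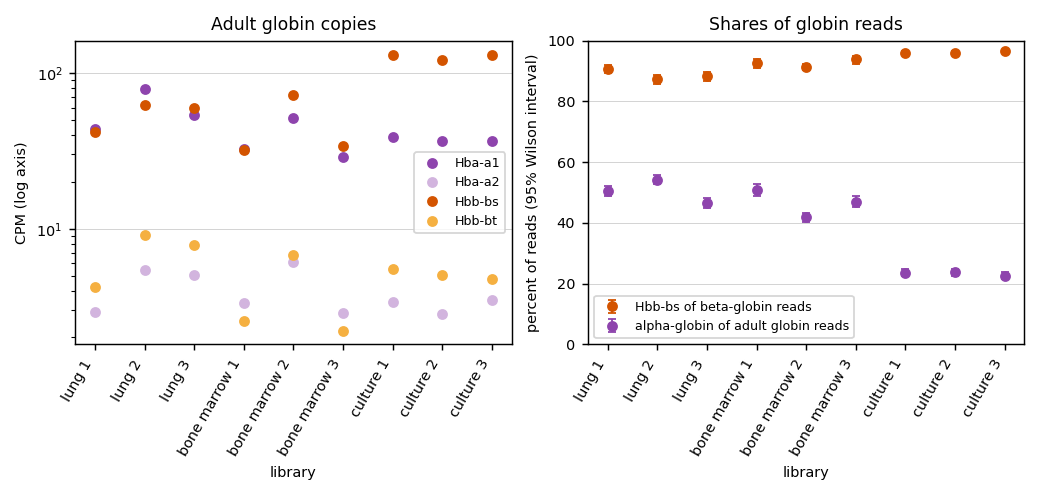
Adult globin levels in each library, in CPM, beside the share of beta reads given to Hbb-bs and the share of globin reads from the alpha genes, in percent. Bars on the shares are 95% Wilson intervals, which leave out the spread between libraries and treat reads as independent. Hbb-bs is highest in culture, and the alpha share averages 50.5% in lung, 46.6% in bone marrow and 23.3% in culture.

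Promoters were sought for the 6 members of largest change, Slc4a1, Car1, Aqp1, Cpox, Epb42 and Hbb-bs, and 4 of them were listed in the RefSeq table. The motifs marked in them were searched on both strands of the 250 bases before each RefSeq start. GATA stands for AGATAA or TGATAA or AGATAG or TGATAG, and KLF for CCNCNCCC, and the motifs may overlap. A promoter was listed for 31 of the 40 members. At least 1 GATA motif was found in 20 of them (64.5%) and in 29.7% of 27025 genes with a listed promoter. A KLF motif was found in 17 members (54.8%) and in 48.5% of all genes. Both were present in 7 members (22.6%) and in 9.43% of all genes. These are matches of letters, given as a description and without a test, and a motif was present both in members that were higher in tissue and in members that were lower.

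Regulators outside the set also changed in both directions. Of 12 tested, 1 was higher and 7 lower in bone marrow than in culture, 3 higher and 7 lower in lung than in culture, and 4 higher and 0 lower in lung than in bone marrow. Gata2, the factor that precedes Gata1 in the lineage, had 162, 205 and 190.3 CPM in lung, 55.5, 50.1 and 51.2 CPM in bone marrow and 301, 296 and 300.4 CPM in culture. The groups were fully apart, with 1.83 ± 0.09 (adjusted p = 2.2e-08) for lung against bone marrow, -2.52 ± 0.09 (adjusted p = 2.8e-10) for bone marrow against culture and -0.69 ± 0.09 (adjusted p = 2.2e-05) for lung against culture. Zfpm1, the GATA1 cofactor FOG1, was higher in lung than in bone marrow (0.57 ± 0.12, adjusted p = 0.0042) and than in culture (0.40 ± 0.12, adjusted p = 0.0093). Gfi1b, an erythroid repressor, was lower than culture in bone marrow (-0.85 ± 0.15, adjusted p = 5.1e-04) and in lung (-1.05 ± 0.15, adjusted p = 1.4e-04), while Ldb1, which joins GATA1 complexes, was higher in both (0.31 ± 0.09, adjusted p = 0.0066, and 0.26 ± 0.09, adjusted p = 0.021). Myb, a progenitor regulator, was lower than culture in bone marrow (-0.31 ± 0.08, adjusted p = 0.0052).

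Genes tied to the last steps of red cell maturation were also divided. Of 11 tested, 2 were higher and 4 lower in bone marrow than in culture, 3 higher and 3 lower in lung than in culture, and 2 higher and 3 lower in lung than in bone marrow. Prdx2, an abundant red cell peroxidase, was higher than culture in bone marrow (0.76 ± 0.11, adjusted p = 4.1e-05) and in lung (0.32 ± 0.11, adjusted p = 0.023), and lower in lung than in bone marrow (-0.45 ± 0.11, adjusted p = 0.0095). Bnip3l, which clears mitochondria from reticulocytes, was lower in lung than in bone marrow (-0.52 ± 0.09, adjusted p = 0.0011) and than in culture (-0.46 ± 0.09, adjusted p = 4.6e-04). Dyrk3, an erythroid kinase, had 139.7, 118 and 128 CPM in lung, 52.2, 55.7 and 53.5 CPM in bone marrow and 66.7, 68.4 and 69.6 CPM in culture, with lung above both other groups. It was higher in lung than in bone marrow (1.26 ± 0.08, adjusted p = 3.4e-07) and than in culture (0.91 ± 0.08, adjusted p = 9.8e-07). Rbm38, an RNA-binding protein of late erythroid splicing, was higher than culture in bone marrow (0.81 ± 0.09, adjusted p = 6.9e-06) and in lung (0.84 ± 0.09, adjusted p = 6.4e-06), and Fam210b, a mitochondrial protein, was lower in both tissues (-0.43 and -0.49).

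Over all 52 tested genes of these outside lists, 12 were higher (23.1%) and 21 lower (40.4%) in bone marrow than in culture. The shares of all genes were 30.7% and 29.8%. In lung against culture, 16 were higher (30.8%) and 19 lower (36.5%), beside 27.9% and 27% of all genes. In lung against bone marrow, 9 were higher (17.3%) and 6 lower (11.5%), beside 14.2% and 11.1% of all genes. The median coefficient of variation of the tested members between libraries was 12.5% in lung, 11.1% in bone marrow and 3.92% in culture, beside 11.5%, 13.7% and 6.75% over all tested genes. Among the tested members the most variable was Hbb-bt in lung (35.9%) and in bone marrow (66.1%), and Ppox in culture (24.9%).

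Some calls depended on the scaling, the filter or the libraries fitted, beside those named with their genes. With only the 6 libraries compared, the calls of Nfe2, Hemgn, Alas2, Urod and Ermap in lung against bone marrow were lost (adjusted p = 0.05 to 0.0706), while lung against culture was called for Urod (0.19, adjusted p = 0.0228) and Rhd (0.22, adjusted p = 0.0478). With library size scaling those of Urod and Rhd were called as well (0.22, adjusted p = 0.0359, and 0.24, adjusted p = 0.0413), and that of Abcb10 in bone marrow against culture was lost (-0.39, adjusted p = 0.052). With no low-count filter, Ppox was called in bone marrow (-0.25, adjusted p = 0.0364) and in lung (-0.29, adjusted p = 0.0119) against culture. Slc25a37 was then called in lung against bone marrow (0.33, adjusted p = 0.0458) and against culture (0.30, adjusted p = 0.0487), and Hbb-bt in lung against bone marrow (0.88, adjusted p = 0.0025). With limma-voom, Ermap was called in bone marrow against culture (-0.19, adjusted p = 0.0331) and Fech in lung against culture (0.16, adjusted p = 0.0421).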

How the data were processed

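RNA was measured in 9 libraries of mouse AML cells, 3 each from lung, bone marrow and culture. Per the labels, RNA was isolated with RNeasy Plus Micro and amplified with SMART-seq v4, and libraries were made with ThruPLEX. Per the submitters' processing notes, bcl2fastq and STAR with mm10 were used, and a counting tool or annotation is not given in the sources used here. The authors deposited unnormalised read counts by gene symbol, for 55291 genes, of which 30802 had a read. Depth was 27485111 to 38761363 reads. Amplified reads are not independent molecules. The Wilson intervals treat reads as independent, so they may be too narrow even for counting error.

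From the counts, genes were filtered with filterByExpr (15066 kept) and scaled with TMM (factors 0.966 to 1.04). They were tested with the quasi-likelihood test of edgeR 4.0.16 in R 4.3.3, with robust dispersion and 1 fit over all 9 libraries. Benjamini-Hochberg adjustment was over all tested genes. The steps were also run on simulated data in which far fewer genes changed than were called here. That run cannot show how they behave when so many genes change. Every log2 change, SE and adjusted p without another tool or setting named comes from the fit over all 9 libraries. DESeq2 1.42.0 and limma 3.58.1 were alternatives. Replicates of a group differed by more than sampling noise (chi-square per degree of freedom 3.86 to 39.7 over genes), so each counted as 1 sample. Coordinates, lengths and globin coding sequences come from GENCODE M21 (GRCm38), and promoters from a RefSeq table of GRCm38.p6. GATA and KLF motifs were searched on both strands.

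The 40 members and the lists beside them were chosen with earlier results of these data known. Values per library are given for the adult globins and for members called in at least 1 comparison that reached a mean of 10 CPM, and for some others. From the other erythroid lists, the 2 most abundant called genes per direction were named, with Gata1 and Gata2 throughout, and some of these are given as changes only. Some genes that the rule names are not reported here and stayed out of the lists. Some genes, among them Hba-x, Hbb-y, Cldn5, Mpo, Csf3r, Csf2rb, Spi1, Add2 and C1qb, were named after their values were seen.

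Bone marrow and lung libraries share replicate numbers whose meaning the labels do not give. Their deviations from the group means, in log2(CPM + 1) over all tested genes, correlated at 0.18, 0.39 and 0.15 for the 3 same-numbered pairs, and at -0.31 to 0.08 for other pairs. All 3 exceeded 0.1, the limit set for treating numbers as pairs, so blocked fits are given beside results whose call they change. Culture libraries correlated with same-numbered tissue libraries at -0.09 to 0.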

Additional observations from a re-analysis of the deposited data

Results flagged for a closer look

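For 10 of the 37 tested members the change from culture differed between lung and bone marrow. This was tested as lung against bone marrow in the edgeR fit, since both changes use the same culture libraries. Over all tested genes, 25.3% were called in that comparison, so the member count lies near the share of all genes. The change in lung minus that in bone marrow, on the log2 scale, was higher for Slc4a1 (1.34, adjusted p = 0.004), Alas2 (0.88, adjusted p = 0.015) and Sptb (0.52, adjusted p = 0.0067). It was lower for Hemgn (-0.46, adjusted p = 0.021), Nfe2 (-0.42, adjusted p = 0.028), Alas1 (-0.42, adjusted p = 0.0073), Tspo2 (-0.36, adjusted p = 0.0094), Ermap (-0.32, adjusted p = 0.015), Urod (-0.28, adjusted p = 0.024) and Bcl11a (-0.22, adjusted p = 0.041). For Slc4a1 both tissues lay above culture and lung lay highest. Alas1 was above culture in both tissues with bone marrow highest, and Nfe2, Hemgn and Bcl11a were below culture in both with lung lowest. For Slc4a1, Alas1, Tspo2 and Sptb these calls were lost in no alternative except the test against a change of 1.5-fold.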

How the results depend on the processing

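No member call reversed under any alternative. Of 55 member calls in the 3 comparisons, 44 were kept under every alternative except the test against a change of 1.5-fold, and 16 were kept under that test too. Against 1.5-fold, members called higher and lower were 0 and 0 in lung against bone marrow, 4 and 5 in bone marrow against culture, and 3 and 4 in lung against culture. Genes called were 417 and 59, 1896 and 2020, and 1563 and 1581 in the same order. With only the 6 libraries compared, lung against bone marrow had 1400 genes higher and 981 lower, and 2 members lower. With no low-count filter, 5 members were higher there. Upper-quartile scaling put 46.2% of called genes on the higher side there, against 56.2% with TMM. The causes were not tested.

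Leaving out 1 library at a time gave 1430 to 2676 genes higher and 928 to 2084 lower in lung against bone marrow, with 2 to 6 members higher and 2 to 8 lower. Genes called lower there numbered 1059 when lung replicate 1 was left out, 984 when lung replicate 2 was, and 928 when bone marrow replicate 2 was. The ranges against culture were 10 to 12 members higher and 10 to 12 lower in bone marrow, and 9 to 12 higher and 12 to 13 lower in lung. An arm left with 2 libraries borrows its spread from the other groups.

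With the replicate block on all 9 libraries, 2364 genes were higher and 1769 lower in lung against bone marrow, and Gypc was called in bone marrow against culture (-0.45, adjusted p = 0.0187), where the numbers share no deviation. With the replicate block in bone marrow and lung alone, an alternative chosen after seeing the data, 8 members were higher. Apart from the members named with a blocked value, the block changed no other member call. Trim58, Hba-x and Hbb-y had too few reads to be tested at this depth.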
